A study of Mus musculus with 12 samples.

Results

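The libraries named Combined, CTX and CTX2 in the receptor table of a mouse mammary tumour study were compared, 1 library against 2. They held 9735 of the 10287 called cells in the 4 receptor libraries whose number matched a sample title, with 7629 cells in Combined, 773 in CTX and 1333 in CTX2. Members were the contigs marked as belonging to a called cell and as productive, which means that they encode an uninterrupted chain. Cells of 1 library counted as 1 clone where their TRB contig with the most molecules agreed in V gene and in CDR3 nucleotides.

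The 12 samples of the series were single-cell libraries of CD45+ leukocytes from mammary tumours of Balb/c mice, 8 for gene expression and 4 for T cell receptors. All 4 receptor libraries carried the treatment status Treated, and the protocol on every sample was cyclophosphamide, an alkylating chemotherapy, plus pexidartinib, an inhibitor of the CSF1 receptor, for 3 weeks. The labels do not define the tags Combined and CTX, do not give age or sex, and do not say how many mice a library pooled. The expression libraries were not analysed here, so the T cell label rests on the receptor contigs. Combined was receptor replicate 3, CTX replicate 1 and CTX2 replicate 4, and the titles of Combined and CTX2 share a prefix that CTX lacks. With 1 library against 2, the smallest two-sided exact permutation p possible is 0.333, so no p-value is given, and the 95% intervals below are exact Clopper-Pearson intervals that cover counting error only. The spread between CTX and CTX2 stands beside each difference as the only measure of variation between libraries.

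An alpha-beta T cell receptor pairs a TRA chain, built from a V and a J gene, with a TRB chain, built from V, D and J genes. Bases are trimmed and added at the joins, so the CDR3 loop across the join differs from one T cell to the next and serves as a tag of descent. T cells that divide after meeting antigen share both chains. Cells with similar receptors from separate rearrangements can differ at the join even where the protein is alike.

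The receptors below are shown because their protein pattern recurred across the libraries with different TRB nucleotides, and because 1 of them led Combined. Each is a TRB CDR3 read 5′ to 3′, with TRBV13-2 and a protein CDR3 that begins CASGDAG. In each clone, every cell with a TRA had an alpha chain that joined a TRAV7 family gene to TRAJ22 and ended in SSGSWQLIF. Cell counts are of the whole TRB clone, and 82 cells of the clone of 86 had a TRA. The alpha printed for that clone was found in 76 of these 82, and the clone had 2 alpha nucleotide sequences. Capitals mark bases matched by neither the inferred V gene end nor the inferred J gene end, which hold D gene and added bases together.
Combined beta, 6 cells: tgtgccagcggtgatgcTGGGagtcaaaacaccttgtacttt
Combined alpha of that clone: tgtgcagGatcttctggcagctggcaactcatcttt
Combined beta, 1 cell: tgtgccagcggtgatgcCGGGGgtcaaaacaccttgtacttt
Combined beta, 1 cell with TRBJ1-1: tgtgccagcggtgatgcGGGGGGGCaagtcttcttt
Combined beta, 1 cell: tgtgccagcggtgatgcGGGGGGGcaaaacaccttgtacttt
CTX beta, 3 cells: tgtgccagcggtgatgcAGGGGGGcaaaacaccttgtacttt
CTX alpha of that clone: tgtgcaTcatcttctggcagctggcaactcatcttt
CTX2 beta, 86 cells: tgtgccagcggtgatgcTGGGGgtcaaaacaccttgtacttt
CTX2 alpha of that clone: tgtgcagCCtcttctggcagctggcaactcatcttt
CTX2 beta, 55 cells: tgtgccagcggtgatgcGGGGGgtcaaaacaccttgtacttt
CTX2 beta, 15 cells with TRBJ1-1: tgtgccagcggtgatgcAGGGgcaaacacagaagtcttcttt
CTX2 beta, 5 cells with TRBJ1-2: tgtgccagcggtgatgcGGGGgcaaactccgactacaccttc

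Combined held a repertoire of nearly all different T cells, while CTX and CTX2 held expanded clones. Its 7188 cells with a TRB fell into 7129 clones, against 532 cells in 383 clones in CTX and 1085 cells in 483 clones in CTX2. Cells in clones of 2 or more made up 1.47% of TRB cells in Combined (95% interval 1.21 to 1.78), 35.2% in CTX and 60.6% in CTX2. Combined stayed below the mean of the other libraries under every definition of a clone that was tried.

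The same order held at equal cell numbers. At 532 cells drawn from each library, Combined gave 531.6 clones on average, CTX 383 and CTX2 257. Diversity as the inverse Simpson index, which counts clones as if all had 1 size, was then 531 in Combined, 92.1 in CTX and 32.7 in CTX2. Combined lay apart from both other libraries by more than they differed from each other in clones per drawn cell, at 99.9% against 72.0% and 48.3%.

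**Figure D1:**
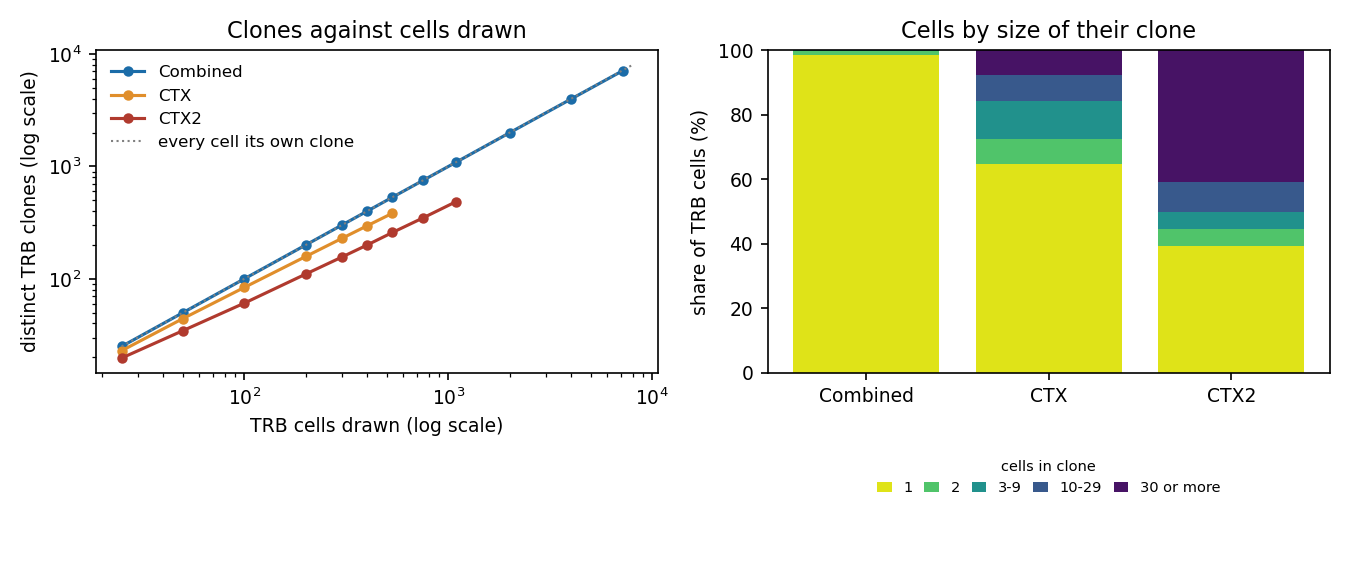
Left, distinct TRB clones (log axis) against TRB cells drawn at random (log axis) for Combined, CTX and CTX2, with a dotted line where every cell is its own clone. Right, the share of TRB cells by the size of their clone. Combined follows the dotted line up to its 7188 cells, and its cells are nearly all in clones of 1.

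The few clones with more than 1 cell in Combined were small. Of its 47 such clones, 42 held 2 cells, 1 held 3, 2 held 4, 1 held 5 and 1 held 6. CTX had 38 such clones, the largest of 41 cells, and CTX2 had 56, the largest of 117 cells. Combined had no clone of 10 or more cells, against 4 in CTX and 14 in CTX2.

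The alpha chain was not used to define a clone, so it shows whether cells that share a TRB also share their second chain. In Combined, 9 of the 47 clones of 2 to 9 cells had a TRA CDR3 found in more than 1 cell, 28 had only different TRA chains, and 10 had fewer than 2 cells with a TRA. In CTX, 29 of 34 clones of that size shared a TRA, 0 had only different ones and 5 had too few. In CTX2 these counts were 36, 1 and 5 of 42. Small TRB clones thus held cells with different alpha chains more often in Combined, in 28 of its 37 clones that could be judged. These counts were not repeated at equal cell numbers, and Combined had 7188 TRB cells against 532 in CTX and 1085 in CTX2. Its small clones were also smaller, with 2 cells in 42 of 47, against 20 of 34 in CTX and 29 of 42 in CTX2. Counting only cells that shared both chains with another cell, an alternative chosen after the data were seen, the expanded share of Combined was 0.376% and the mean of CTX and CTX2 was 43.0%.

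The 6-cell clone that led Combined paired TRBV13-2 and TRBJ2-4 with TRAV7-1 and TRAJ22, and all 5 of its cells with a TRA carried the same alpha chain. The second, of 5 cells, used TRBV12-1 with TRBJ2-3 and the CDR3 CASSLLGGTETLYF, and 4 of its 5 cells with a TRA carried TRAV9N-2 with TRAJ43. Of the 2 clones of 4 cells, the one with more TRB UMIs (60 against 59) used TRBV19 with TRBJ2-1 and the CDR3 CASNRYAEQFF, and all 4 of its cells carried TRAV10N with TRAJ40. The other used TRBV5 with TRBJ1-4, and all 3 of its cells with a TRA carried 1 alpha chain. The leading clone of CTX paired TRBV2 with TRAV14N-1 and TRAJ47 in 36 of 36 cells with a TRA. The leading clone of CTX2 paired TRBV4 with TRAV7D-4 and TRAJ49 in 109 of 111.
Combined clone of 4 cells, beta: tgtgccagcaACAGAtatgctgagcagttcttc
Combined clone of 4 cells, alpha: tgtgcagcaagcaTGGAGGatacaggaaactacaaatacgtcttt
CTX leading clone, beta: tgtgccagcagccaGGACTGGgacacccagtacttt
CTX2 leading clone, beta: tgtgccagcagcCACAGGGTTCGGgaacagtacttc

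The receptor group shown first above recurred in all 3 libraries, and each of its clones had its own TRB nucleotides. The alpha nucleotides of the clones did not all differ, since the Combined clone with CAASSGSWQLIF had the same ones as the CTX2 clones of 15, 7 and 4 cells. This group was chosen after its values were seen, from the leading clones, so its counts are a description. In Combined, 8 of 5728 cells with both chains carried this beta and alpha pairing (0.140%, 95% interval 0.0603 to 0.275), in 4 clones. In CTX it was 3 of 464 cells (0.647%, 0.134 to 1.88), in 1 clone. In CTX2 it was 170 of 982 cells (17.3%, 15 to 19.8), in 8 clones.

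By clone, which leaves expansion out, the group made up 0.0704% of clones with a TRA in Combined (0.0192 to 0.180), 0.296% in CTX (0.00749 to 1.64) and 1.94% in CTX2 (0.842 to 3.79). The interval of Combined overlapped that of CTX and lay below that of CTX2. PBS2, the remaining receptor library, had 0 of 377 cells with the pairing, which allows a share of up to 0.796% at 3 counts of the total and 0.974% by the exact interval, and it had 4 clones with such a beta chain and another alpha chain. In Combined the beta pattern was mostly joined to other alpha chains: 48 of its clones had the CASGDAG beta with a different alpha, and 5 had the alpha with a different beta. In CTX these counts were 5 and 0, beside the 1 clone with both patterns. In CTX2 they were 2 and 3, so 8 of the 10 clones there with the beta pattern also had the alpha pattern.

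The alpha residue after the leading CA differed among the clones in Combined. Its 4 clones had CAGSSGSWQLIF, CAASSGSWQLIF, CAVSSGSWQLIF and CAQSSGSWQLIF. In CTX2, 7 of the 8 clones had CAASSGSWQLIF and 1 had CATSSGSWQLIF, and the CTX clone had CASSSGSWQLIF. The beta CDR3 protein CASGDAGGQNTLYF occurred in Combined, CTX and CTX2 alike, with TRBJ2-4.

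**Figure D2:**
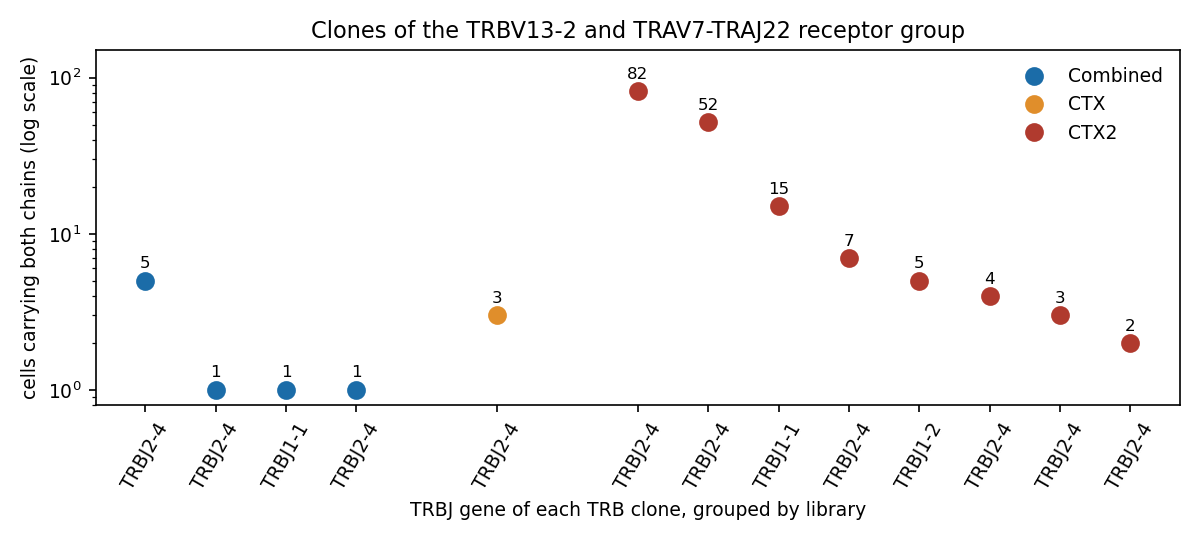
Each point is 1 TRB clone with the TRBV13-2 CASGDAG beta chain whose cells carried the TRAV7-TRAJ22 alpha chain, and the vertical axis gives the cells that carried both chains (log axis). Combined has 4 such clones of 1 to 5 cells, CTX 1 of 3 cells, and CTX2 8 of 2 to 82 cells.

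Exact sharing of a TRB between libraries was rare. Combined shared 2 nucleotide clones with CTX and 5 with CTX2, and CTX shared 0 with CTX2. Only 1 of these 7 had the same alpha chain in both libraries, a TRBV1-TRBJ1-1 receptor with no inserted base, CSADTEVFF. The CTX2 clone of 86 cells had its exact TRB nucleotides in 1 cell of Combined, which carried another alpha chain and is not among the 4 Combined clones of the group.
Shared beta with no inserted base: tgcagtgcagacacagaagtcttcttt

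At the protein level, 12 TRB receptors (same V gene, J gene and CDR3 residues) were shared by Combined and CTX, which is 3.15% of those in CTX and 0.170% of those in Combined. Combined and CTX2 shared 16, which is 3.36% of those in CTX2 and 0.226% of those in Combined. CTX and CTX2 shared 3, which is 0.787% and 0.630% of theirs. Shares of unequal lists depend on list length, and Combined had 7075 receptors to match against. Cell barcodes were shared too, 4 between Combined and CTX, 14 between Combined and CTX2 and 0 between CTX and CTX2. Of these, 2 and 9 had a TRB in both libraries, and in 0 of them was it the same TRB.

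Separate rearrangements that encode the same TRB protein also occurred within Combined. It had 52 such proteins from 106 clones, 1.49% of its clones (95% interval 1.22 to 1.796), and no protein came from more than 3 nucleotide sequences. CTX had 1 such protein, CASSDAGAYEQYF from 3 sequences. CTX2 had 2, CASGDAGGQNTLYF from 6 sequences and another from 3.

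Because pairs grow with the number of clones, the count was repeated at 383 clones drawn from each library. Clones that shared their protein with another clone then made up 0.0846% in Combined, 0.783% in CTX and 1.83% in CTX2. In Combined the recurrent clones had fewer inserted bases, 7.08 on average (n = 106) against 9.70 in the others (n = 7000). The proteins with 3 sequences in Combined were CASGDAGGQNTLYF, of the group above, and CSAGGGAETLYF, with TRBV1 and TRBJ2-3, whose sequences show how different joins gave 1 protein.
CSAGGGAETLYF, first: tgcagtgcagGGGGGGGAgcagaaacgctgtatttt
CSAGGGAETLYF, another: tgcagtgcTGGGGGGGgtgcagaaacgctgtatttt
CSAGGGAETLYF, another: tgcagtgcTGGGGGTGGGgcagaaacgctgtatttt

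Beta chain V gene use was broadly alike, with a few genes that set Combined apart. Shares are of clones, whatever their size. A gene was called where its share in Combined was at least 1.5 times that in both CTX and CTX2, or where both were at least 1.5 times Combined, among genes with a mean share of at least 1%. This is a rule of size and not a test. Of 15 TRBV genes, 2 were called higher in Combined (13.3%) and 2 lower (13.3%).

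TRBV20 was the only called TRBV gene whose interval in Combined overlapped neither of the others. It was used by 7.62% of clones in Combined (543 of 7129, 95% interval 7.01 to 8.26), 3.92% in CTX (15 clones, 2.21 to 6.38) and 4.35% in CTX2 (21 clones, 2.71 to 6.57). CTX and CTX2 lay close together, and Combined stood 3.48 percentage points above their mean. TRBV20 lies on chromosome 6 at 41188273 to 41188977 of GRCm38. With each cell counted once the gap was 4.80 points, and with TRB contigs of at least 10 UMIs, an alternative added after seeing the data, it was 4.27.

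TRBV2 (chromosome 6, 41047556 to 41047995) was called higher as well, with 4.97% of clones in Combined, 2.87% in CTX and 3.11% in CTX2. Its share moved with the number of molecules behind a contig. In Combined it was 8.74% among clones whose TRB UMIs were below the library's median and 1.53% among the rest. In CTX2 these were 6.38% and 0 of 248 clones, which allows up to 1.21% at 3 counts of the total and 1.48% by the exact interval, and in CTX 4.09% and 1.89%. With contigs of at least 10 UMIs the gap was 0.28 points, and counted by cell it was -0.58. The leading clone of CTX uses TRBV2 and so weighs on the count by cell. The part of contig depth in the call was not tested.

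TRBV31 came nearest to the rule for a higher share without meeting it. TRBV31 lies downstream of the TRB constant genes and joins by inversion. It was used by 8.49% of clones in Combined, 5.22% in CTX and 6.21% in CTX2, or 1.63 and 1.37 times as often. TRBV4 was used by 6.83%, 5.22% and 4.14%, in the same order.

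TRBV3 and TRBV16 were called lower. TRBV3 (chromosome 6, 41048394 to 41048824) was used by 1.60% of clones in Combined (1.32 to 1.92), 2.87% in CTX (1.44 to 5.08) and 2.69% in CTX2 (1.44 to 4.56). TRBV16 (chromosome 6, 41151791 to 41152230) was used by 0.491% in Combined (0.342 to 0.682), 1.57% in CTX (0.577 to 3.38) and 1.45% in CTX2 (0.585 to 2.96). The CTX and CTX2 shares rest on 6 to 13 clones each, and their intervals overlap those of Combined. By cell no TRBV gene was called lower, with TRBV3 at 1.61%, 2.26% and 1.198% and TRBV16 at 0.487%, 1.13% and 0.645% in Combined, CTX and CTX2.

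TRBV16 belongs to a list of V genes that BALB/c mice lose to superantigens of endogenous mammary tumour viruses, with TRBV12-1, TRBV12-2, TRBV15 and TRBV26. Clones with a gene of this list were 0.926% in Combined (66 of 7129, 95% interval 0.717 to 1.18), 3.39% in CTX (13 of 383, 1.82 to 5.73) and 2.90% in CTX2 (14 of 483, 1.59 to 4.82). The interval of Combined lay below both others. TRBV15 had 0.182%, 1.04% and 0.621% in Combined, CTX and CTX2, and TRBV12-1 had 0.0561%, 0.783% and 0.414%. The other members did not follow this order, with TRBV26 at 0.140%, 0% and 0.207% and TRBV12-2 at 0.0561%, 0% and 0.207%, where 0 of 383 clones in CTX allows up to 0.783% at 3 counts of the total. Among clones at or above each library's median TRB UMIs the list stood at 1.13%, 4.25% and 3.63%, and among 1-cell clones at 0.918%, 3.48% and 3.28%.

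The TRBV13 family, the most used in all 3 libraries, made up 31.5% of clones in Combined (30.4 to 32.6), 38.9% in CTX (34.0 to 44.0) and 37.3% in CTX2 (32.9 to 41.8). All 3 members were lower in Combined than in the other libraries. TRBV13-2 stood at 13.3%, 15.7% and 16.6%, TRBV13-1 at 11.1%, 12.3% and 13.3%, and TRBV13-3 at 7.08%, 10.97% and 7.45%. No member met the 1.5-fold rule. Next in Combined came TRBV5 with 10.5% and TRBV19 with 10.2%, against 9.92% and 9.14% in CTX and 9.52% and 11.8% in CTX2.

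**Figure D3:**
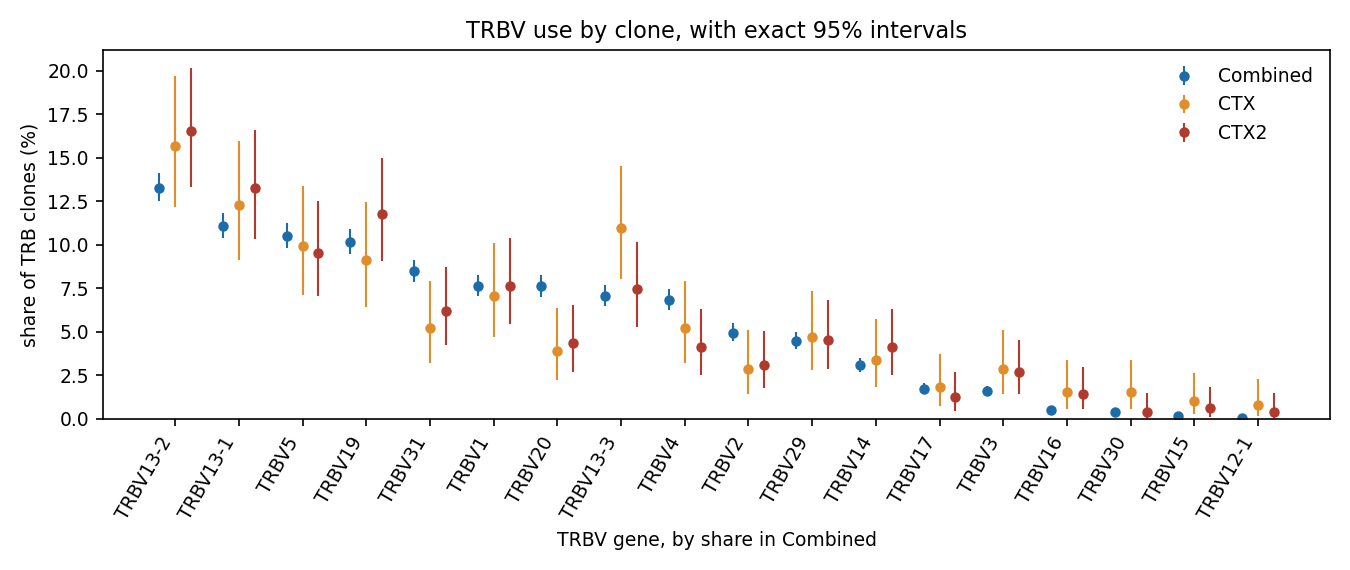
Share of TRB clones (%) by TRBV gene in Combined, CTX and CTX2, with points at the share and bars at exact 95% intervals. TRBV20 stands at 7.62% in Combined against 3.92% and 4.35%, and the TRBV13 genes are lower in Combined.

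Beta chain J gene use did not set Combined apart by this rule. Of 12 TRBJ genes, 0 were called higher (0%) and 0 lower (0%). TRBJ2-7 led with 15.5% of clones in Combined, 18.0% in CTX and 15.3% in CTX2, followed in Combined by TRBJ2-5 with 12.02%, TRBJ1-1 with 10.4%, TRBJ2-1 with 9.90% and TRBJ2-3 with 9.31%. The upstream cluster, TRBJ1, took 38.5% of clones in Combined (37.4 to 39.7), 33.4% in CTX (28.7 to 38.4) and 37.1% in CTX2 (32.7 to 41.5). The nearest to the rule for a higher share was TRBJ1-4, with 9.16% in Combined, 7.57% in CTX and 7.87% in CTX2.

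Alpha chain V gene use also held a few genes called by this rule. Of 37 TRAV genes, 3 were called higher in Combined (8.11%) and 2 lower (5.41%), by clones with a TRA, of which there were 5681 in Combined, 338 in CTX and 412 in CTX2. Many mouse TRAV genes have near copies in the same locus, and the gene table is of another strain, so families are given beside single genes.

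TRAV11 and TRAV3-3 were lower in Combined, with intervals that overlapped neither CTX nor CTX2. TRAV11 (chromosome 14, 53519303 to 53519859) was used by 0.282% of clones in Combined (16 clones, 0.161 to 0.457), 1.78% in CTX (6 clones, 0.654 to 3.82) and 2.67% in CTX2 (11 clones, 1.34 to 4.73). TRAV3-3 (chromosome 14, 53666005 to 53666506) was used by 1.16% in Combined (66 clones, 0.900 to 1.48), 3.85% in CTX (13 clones, 2.06 to 6.49) and 3.16% in CTX2 (13 clones, 1.69 to 5.34). The TRAV3 family as a whole stood at 2.5% in Combined, 6.21% in CTX and 4.85% in CTX2. By cell no TRAV gene was called lower: TRAV3-3 stood at 1.15%, 5.17% and 1.43%, and TRAV11 at 0.279%, 1.29% and 1.12%, with a mean share under the minimum.

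TRAV11 joined to TRAJ18 with a set CDR3 is the alpha chain of invariant natural killer T cells, which recognise lipids on CD1d. Clones with that gene pairing, whatever their CDR3, were 4 in Combined (0.0704%, 0.0192 to 0.180), 4 in CTX (1.18%, 0.323 to 3.00) and 9 in CTX2 (2.18%, 1.004 to 4.11). TRAV11 clones with another J gene were 12, 2 and 2, which is 0.211%, 0.592% and 0.485%. The ratio of Combined to the others was thus lower for the TRAJ18 pairing than for the rest of TRAV11. The alpha chains of the 4 clones in Combined are shown, because those of 3 clones have nucleotides that CTX and CTX2 hold too, and 1 clone has another CDR3, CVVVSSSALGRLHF, with 6 inserted bases.
Combined TRAV11-TRAJ18, 2 clones: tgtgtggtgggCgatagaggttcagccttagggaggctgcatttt
Combined TRAV11-TRAJ18, 1 clone: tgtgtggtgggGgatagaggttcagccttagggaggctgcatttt
Combined TRAV11-TRAJ18, 1 clone, not in CTX or CTX2: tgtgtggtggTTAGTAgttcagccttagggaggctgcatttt

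Clones with the TRAV1-TRAJ33 chain of mucosal-associated invariant T cells, which recognise vitamin B metabolites on MR1, were 2 in Combined, 1 in CTX and 3 in CTX2. At 0.0352%, 0.296% and 0.728% they followed the order of the natural killer T chain, but the interval of Combined (0.00426 to 0.127) overlapped that of CTX (0.00749 to 1.64).

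The genes called higher were TRAV4N-4, TRAV13D-2 and TRAV8D-2. TRAV4N-4 (chromosome 14, 53302059 to 53302559) was used by 3.41% of clones in Combined, 2.07% in CTX and 1.94% in CTX2. TRAV13D-2 was used by 1.69%, 0.888% and 0.728%, with 3 clones each in CTX and CTX2. TRAV8D-2 was used by 1.46%, 0.592% and 0.971%, with 2 and 4 clones. It only just met the rule, with a mean share of 1.008% and a ratio of 1.505 to CTX2. For each of the 3 genes the interval of Combined overlapped those of both CTX and CTX2. Counted by cell, the difference for TRAV13D-2 was -1.37 points, and the second clone of CTX uses that gene.

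By family, Combined was higher for TRAV4 with 8.29% (7.59 to 9.04), against 4.73% in CTX (2.73 to 7.57) and 5.58% in CTX2 (3.57 to 8.26). TRAV5 stood at 4.56%, 2.66% and 3.16%, and TRAV8 at 5.56%, 3.55% and 3.88%. The TRAV13 family as a whole was not higher in Combined than in CTX, with 6.34%, 9.17% and 6.07%. With near copies collapsed, 2 TRAV genes were called higher in place of 3. TRAV16 was lower in Combined, at 3.73% (3.25 to 4.26), 6.21% (3.89 to 9.34) and 5.58% (3.57 to 8.26). The large families TRAV6 and TRAV7 did not order the libraries in this way, with 16.9% and 13.4% in Combined, 16.3% and 10.9% in CTX, and 19.2% and 14.3% in CTX2. The most used single genes in Combined were TRAV6-6 with 5.44%, TRAV9D-1 with 4.61%, TRAV6-7-DV9 with 4.40%, TRAV12D-2 with 3.77% and TRAV16N with 3.71%.

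Among 32 TRAJ genes, 0 were called higher in Combined (0%) and 1 lower (3.12%). That gene was TRAJ22 (chromosome 14, 54197248 to 54197307), the J gene of the receptor group above. It was used by 2.43% of clones in Combined (2.04 to 2.86), 4.73% in CTX (2.73 to 7.57) and 5.83% in CTX2 (3.77 to 8.54). By cell it stood at 2.497%, 3.88% and 19.2%. TRAJ31 was nearest to the rule on the other side, with 4.35% in Combined, 2.96% in CTX and 2.91% in CTX2.

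**Figure D4:**
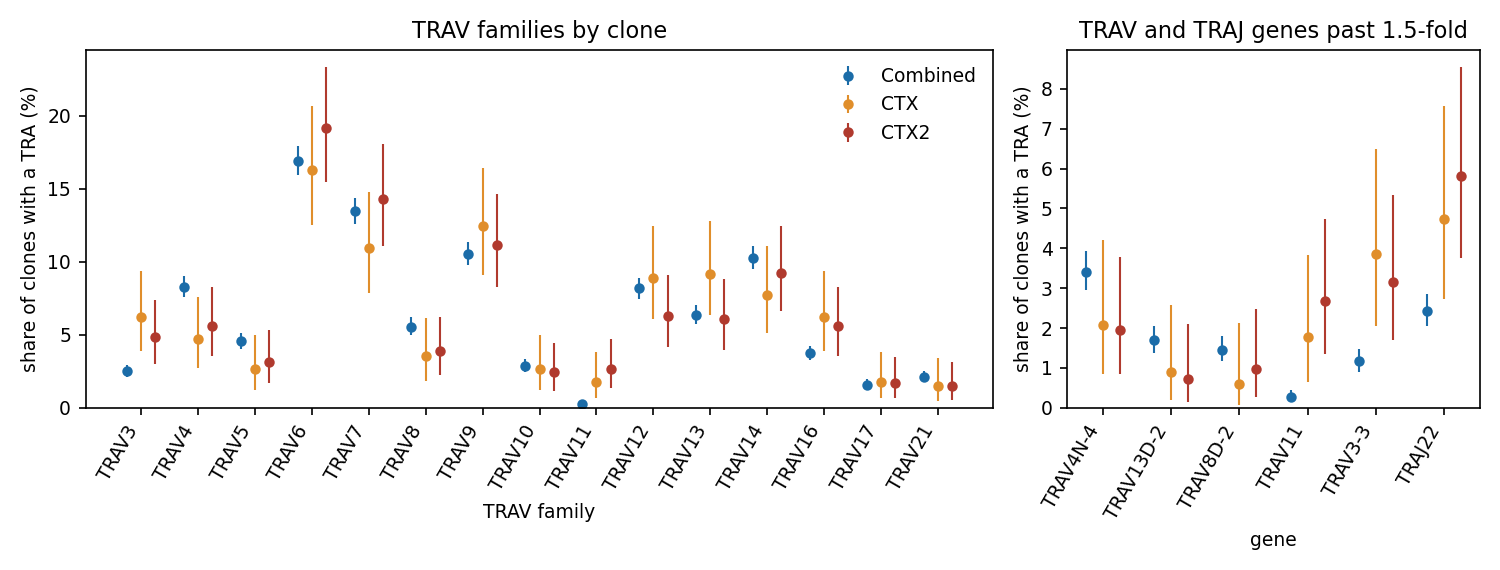
Share of clones with a TRA (%) for TRAV families (left) and for the TRAV and TRAJ genes called by the 1.5-fold rule (right), with exact 95% intervals, in Combined, CTX and CTX2. TRAV11, TRAV3-3 and TRAJ22 are lower in Combined, and TRAV4N-4 is higher.

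The TRA locus rearranges in an ordered way: a first join can be replaced by one between a V gene farther upstream and a J gene farther downstream, and TRAJ numbers fall along the chromosome. The mean TRAJ number was lowest for the TRAV genes farthest upstream in all 3 libraries. In Combined, clones with a TRAV gene among the 44 farthest upstream had a mean TRAJ number of 33.5 (SD 15.01, n = 1928), against 37.5 for the middle 43 genes (SD 14.4, n = 1654) and 37.6 for the 43 farthest downstream (SD 14.8, n = 2099). In CTX the means were 34.4 (SD 15.8, n = 108), 38.1 (SD 14.7, n = 86) and 36.4 (SD 15.6, n = 144). In CTX2 they were 32.1 (SD 14.8, n = 137), 37.5 (SD 14.01, n = 114) and 36.3 (SD 15.3, n = 161). The middle genes lay above the downstream ones in CTX and CTX2, so no steady rise along the locus was seen, and each difference was small beside the SD among clones.

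Joins to TRAJ15 and below, the far end of the locus, made up 12.7% of clones in Combined (11.8 to 13.6), 14.2% in CTX (10.7 to 18.4) and 12.4% in CTX2 (9.36 to 16.0). Joins to TRAJ46 and above made up 32.7%, 34.6% and 29.9%. The interval of Combined overlapped both others for each of the 4 blocks of TRAJ genes. The 43 TRAV genes farthest downstream were used by 36.9% of clones in Combined (35.7 to 38.2), 42.6% in CTX (37.3 to 48.1) and 39.1% in CTX2 (34.3 to 44.0).

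CDR3 length was nearly the same in all 3 libraries. The TRB CDR3 averaged 13.76 residues in Combined (SD 1.497, n = 7129 clones), 13.78 in CTX (SD 1.53, n = 383) and 13.73 in CTX2 (SD 1.61, n = 483), and a length of 14 was the most frequent length in each. The TRA CDR3 averaged 13.59, 13.72 and 13.60 residues. Combined lay between CTX and CTX2 for TRB, so the tags did not order this measure.

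The joins themselves were alike too. The TRB join held 9.66 inserted bases on average in Combined (SD 3.91), 9.58 in CTX (SD 4.08) and 9.85 in CTX2 (SD 4.14), D gene bases included. The TRA join, which has no D gene, held 3.21, 2.84 and 3.19, and 17.1%, 16.5% and 16.5% of TRA joins had none. The 2 chains thus differed from each other far more than the libraries did.

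Residue makeup was compared in the centre of the loop, without the first 4 and last 4 residues. By chain, 15 of 20 residues in TRB and 13 of 20 in TRA lay above or below both other libraries in Combined. With 3 libraries, any 1 of them is often the highest or lowest even where nothing differs, so these counts alone show no shift. The TRB count takes in cysteine, at 0.00487% of central residues in Combined and 0 in CTX and CTX2. The residues named next were picked after their values were seen. In TRB, serine was 7.54% of central residues in Combined against 6.33% in CTX and 6.36% in CTX2, and alanine 7.65% against 8.91% and 8.46%. In TRA, tryptophan was 0.647%, 0.982% and 1.42%, and TRAJ22, whose loop end reads SGSWQLIF, supplies one. Clones with an acidic residue in the centre of the TRA loop were 32.4% in Combined (31.2 to 33.6), 38.2% in CTX (32.96 to 43.6) and 35.4% in CTX2 (30.8 to 40.3), and mean charge was -0.164, -0.225 and -0.226.

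Chain recovery differed between the libraries, and so did the number of molecules behind each chain. In Combined, 94.2% of called cells had a productive TRB (93.7 to 94.7) and 79.6% a productive TRA, against 68.8% and 65.2% in CTX and 81.4% and 78.3% in CTX2. Cells with neither chain were 1.30%, 26.0% and 13.95%. These are cells called from the receptor library itself, so they do not measure the share of T cells in a tumour.

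Combined stood out by cells with a beta chain alone. These were 19.1% of its called cells (18.3 to 20.04), 8.80% in CTX (6.90 to 11.02) and 7.73% in CTX2 (6.35 to 9.29), while cells with an alpha chain alone were 4.48%, 5.17% and 4.65%. Both chains were found in 75.1% of cells in Combined, 60.03% in CTX and 73.7% in CTX2. The median cell of Combined had 10 TRB UMIs and 3 TRA UMIs, that of CTX 7 and 5, and that of CTX2 16 and 7, counted over cells with the chain. The median ratio of TRB to TRA molecules in a cell was 3.0 in Combined, 1.67 in CTX and 2.37 in CTX2.

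Among cells with at least 5 TRA and TRB UMIs, which leaves out called cells with neither chain, Combined was the lowest and no longer the highest. Before any thinning, both chains were found in 80.5% of these cells in Combined, 86.8% in CTX and 87.5% in CTX2. With each of them thinned to 5 UMIs, both chains were found in 62.2% of cells in Combined (61.1 to 63.4), 73.7% in CTX (69.6 to 77.5) and 69.2% in CTX2 (66.4 to 71.9). Of cells with a productive chain, those under 5 UMIs were left out, 582 in Combined, 63 in CTX and 31 in CTX2. Called cells with neither chain were left out too, 99 in Combined, 201 in CTX and 186 in CTX2. Leaving out the cells with neither chain alone, with no UMI limit, already placed Combined lowest.

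**Figure D5:**
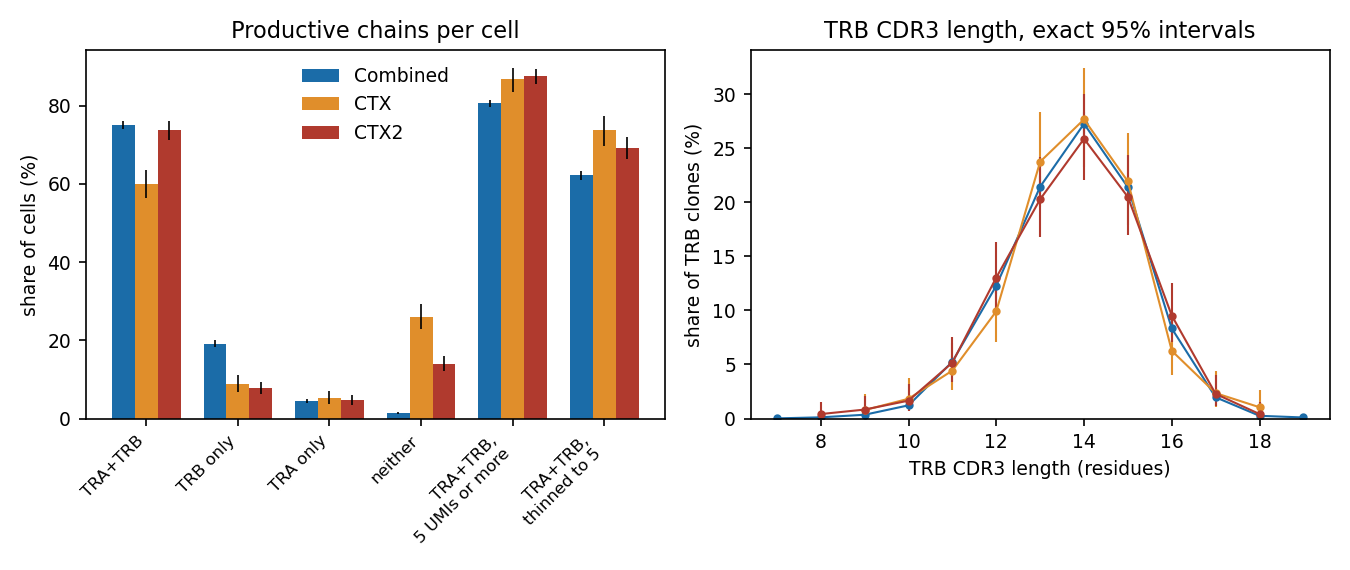
Left, share of cells (%) by productive chains found, among called cells (first 4 sets) and among cells of 5 or more UMIs before and after thinning to 5 (last 2 sets). Right, share of TRB clones (%) by CDR3 length in residues. Bars and lines carry exact 95% intervals, and TRB-only cells are 19.1% in Combined against 8.80% and 7.73%.

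More than 1 productive TRB, which most single T cells lack, was found in 10.5% of TRB cells in Combined, 23.7% in CTX and 4.79% in CTX2. With high-confidence contigs alone these were 5.56% (5.05 to 6.12), 4.51% (2.91 to 6.64) and 2.76% (1.87 to 3.92), which placed Combined highest. Receptor molecules outside called cells were 1.503% of UMIs in Combined, 10.4% in CTX and 5.68% in CTX2, and low-confidence contigs 5.18%, 17.1% and 2.02% of productive TRB contigs. Each molecule was read 625 times on average in Combined, 1851 in CTX and 966 in CTX2, and whether reads limited depth was not tested. Doublets were kept, and the part of free receptor RNA and doublets in the clone counts was not tested beyond leaving out cells with extra chains, after which the expanded share was 1.44% in Combined and 45.1% on average in CTX and CTX2.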

How the data were processed

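Per the labels' protocols, receptor transcripts were enriched from 5′ droplet libraries with a kit for mouse T cells. Cell Ranger 3.0.2 and the build mm10 (GRCm38) are named in the submitters' processing notes. The deposited table gives the reads of each contig and its UMI count, both raw. The 3 libraries held 16841 to 121305 UMIs and 31178451 to 75873178 reads. The table has 11 library names. Of these, 4 matched a sample title and 7 were not used. The other matched library, PBS2, appears only as a reference for shared receptors.

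Contigs called as multi-chain (132) were left out. The alpha chain of a clone was the top TRA of its cell with the most TRA UMIs. Draws at equal cell or clone numbers used 1000 seeded repeats. V and J ends were inferred from these data, since no germline sequence was used here. Each end was extended base by base from the start or end of the CDR3 sequences of a gene. A base was added while at least 20 sequences still matched and over 50% of those carried it, so a full end can be shared by fewer of the gene's sequences. On 4000 simulated joins the mean inserted length was 4.62 where 5.01 was known. Gene positions came from a RefSeq table of GRCm38.p6.

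The genes named are the 5 most used in Combined at each locus, the called genes, and fixed lists (TRBV13, superantigen, natural killer T, mucosal-associated invariant T, TRAV families, TRAJ blocks and TRAV genes by position). Those given as nearest to the rule, the superantigen genes and residues printed singly and the receptor group were picked after their values were seen. Members and lists were chosen with earlier results of these data known. Software was pandas 2.3.3, numpy 2.4.6, matplotlib 3.10.9 and scipy 1.17.1 under Python 3.11.15.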

Additional observations from a re-analysis of the deposited data

How the results depend on the processing

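Values here are Combined minus the mean of CTX and CTX2, or counts of genes called by the size rule. Over 78 alternatives of the main results, 54 kept their direction and moved by less than the spread between CTX and CTX2 (gene counts: stayed within 1.5 times), 17 moved further and 7 reversed. That spread, the SD of the CTX and CTX2 values, is wide for some, so a value can move much within it. Leaving out CTX or CTX2 always moves a value by less than that SD. Outside gene counts those settings could therefore stay the same or reverse, but not move further. Keeping high-confidence contigs alone gave the same value or count as the main setting for every main result but extra TRB chains. Those alternatives therefore add little to the number that stayed the same. The expanded share, -46.4 points, stayed between -46.4 and -41.2 under other clone definitions and filters, and between -59.2 and -33.7 leaving out CTX or CTX2. Clones per drawn cell stayed higher in Combined throughout.

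Gene calls depended on the setting. Called TRBV genes went from 4 (2 higher, 2 lower) to 2 by cell, both higher, 1 at 2-fold and 2 with at least 10 UMIs. Called TRBJ genes went from 0 to 2 by cell, both higher, and ranged from 0 to 1 leaving out CTX or CTX2. Called TRAV genes went from 5 (3 higher, 2 lower) to 8 by cell, all higher, 2 at 2-fold and 2 at a minimum share of 2%, and to 10 without CTX and 15 without CTX2, where the rule then needs 1 library only. Called TRAJ genes went from 1, lower, to 9 by cell (8 higher, 1 lower), 0 at 2-fold, 2 with at least 2 UMIs and 2 without possible doublets, and to 5 without CTX and 12 without CTX2.

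The TRB length difference of 0.01 residues was 0.231 by cell and -0.0479 without possible doublets, and -0.0131 to 0.0336 leaving out a library. The TRA length difference of -0.07 was 0.223 by cell. Cells with both chains went from 8.23 points to -6.65 with cells of neither chain or under 5 UMIs left out (added after seeing the data). They went to -9.19 with the rest thinned to 5 UMIs. Leaving out the cells with neither chain was enough to reverse the sign. Over all called cells, the value was 2.34 with contigs of at least 2 UMIs and 1.41 to 15.06 leaving out CTX or CTX2. Extra TRB chains went from -3.72 to 1.93 points with high-confidence contigs, -0.615 with at least 2 UMIs, and -13.2 to 5.72 leaving out CTX2 or CTX. By cell, TRBV2 was at -0.582 and TRAV13D-2 at -1.37. Counting by cell brings in expansion; other causes were not tested. Shares in CTX and CTX2 rest on few clones, which limits every gene under about 2%. No paired analysis was possible because each library is a separate sample of 1 group, with no number shared between the libraries compared.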
